A study of Mus musculus with 6 samples.

Results

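The genes described here are the ligands of the tumour necrosis factor (TNF) superfamily, their receptors, and the adaptor proteins that carry the receptor signal. Rows of the deposited expression table were taken where the symbol begins with Tnfsf or Tnfrsf followed by a digit, is one of Traf1 to Traf7, or is Tnf, Lta, Ltb, Ltbr, Fas, Fasl, Cd40, Cd40lg, Cd27, Cd70, Eda, Edar, Ngfr, Tradd or Ripk1. This gave 53 of 19309 genes, made up of 18 ligands, 26 receptors and 9 adaptors including the kinase Ripk1. The samples were whole ear skin of 3 C57BL/6 mice aged 6 to 8 weeks, and each animal gave 1 DNFB-treated left ear and 1 vehicle-treated right ear. All animals, the source of the vehicle ears included, had been sensitised with 25 µL of 0.5% DNFB (2,4-dinitrofluorobenzene, a skin hapten) on the first day. From day 6, for 6 days, DNFB at 0.25% went on the left ear and the solvent alone, 80% acetone with 20% olive oil, on the right, 10 µL each. The vehicle ears are therefore skin of sensitised animals and not of untreated ones, and a systemic effect of the challenge on them cannot be told apart from their baseline.

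Ligands of this family are mostly membrane proteins that act as trimers, on neighbouring cells or, after shedding by proteases such as ADAM17, at a distance. Binding clusters the receptor, whose tail recruits TRAF proteins, or TRADD through a death domain, and leads to NF-κB and MAP kinase activation or to caspase-dependent death. In skin the family is known for TNF-driven endothelial activation and leukocyte entry, for costimulation of T cells by OX40, 4-1BB, CD30, GITR and CD27, and for EDA signalling in hair and gland development.

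The 6 libraries held 19556800 to 20336900 estimated counts each. Across genes, log2 CPM (counts scaled to a common library total) correlated at 0.985 to 0.992 between vehicle ears, 0.962 to 0.987 between DNFB ears and 0.842 to 0.913 between the groups. Skin markers were abundant: Krt14, a basal keratinocyte keratin, stood at 4172, 3814 and 3044 CPM in vehicle ears and 3421, 5116 and 5140.0 CPM in DNFB ears. Col1a1, a dermal collagen, stood at 2151, 1773 and 2201 CPM in vehicle ears and 2842, 3608 and 2560.2 CPM in DNFB ears. Marker lists of skin cells and leukocytes differed between the groups. By the test given in the next paragraph, 25.9% of all genes tested were higher in DNFB ears and 25.4% lower. All 7 tested neutrophil markers were higher in DNFB ears, with a summed level of 40.0 to 84.9 CPM in vehicle and 1094 to 2385 CPM in DNFB ears. So were all 7 of the monocyte and macrophage list (918 to 1045 and 2915 to 4573 CPM) and all 8 of the T cell list (34.3 to 42.4 and 88.8 to 211 CPM). No marker of these 3 lists other than Elane, a granule protease of neutrophil precursors, was at 0 in a library, and neither Elane nor Mpo passed the filter on low counts. Mpo, another granule enzyme, measured 1.099, 1.34 and 0.433 CPM in vehicle ears and 0.0495, 0.3001 and 0.148 CPM in DNFB ears, with every DNFB ear below every vehicle ear. Of the keratinocyte list 4 of 7 were lower and none higher (16730.0 to 22002 and 8779 to 15406 CPM), and all 5 skeletal muscle and all 4 adipocyte markers were lower. Because whole ears were sequenced, a change in the number of cells of a type and a change in RNA per cell cannot be told apart in any value below, and the part of these markers in the results was not tested.

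Most of the family was higher in DNFB ears. Of the 53 members, 50 had enough counts to be tested, and at an adjusted p of 0.05 (edgeR's quasi-likelihood test, Benjamini-Hochberg adjustment over 15317 genes) 37 rose, 6 fell and 7 did not pass. Over all genes tested 25.9% rose and 25.4% fell, 51.3% in either direction. The median log2 fold change was 0.99 over the tested members and −0.02 over all genes tested. Of the 50 tested members, 24 passed with a rise of at least 2-fold and 2 with a fall of at least 2-fold. Of all genes tested, 13% and 10.6% did so. The filter keeps a gene that is high in 1 group alone, and 4 members (Fasl, Lta, Tnfrsf8 and Tnfsf11) passed it only through the DNFB ears and 3 (Edar, Tnfrsf13c and Tnfrsf17) only through the vehicle ears. Among the 43 members that reached its cutoff in all 6 libraries, 34 rose, 3 fell and 6 did not pass, where 25.2% and 25.7% of all such genes rose and fell. Vehicle and DNFB values did not overlap in 44 of the 50 tested members, against 62.6% of all genes tested (30.6% with DNFB ears above and 32% with DNFB ears below). By role, 11 of 15 tested ligands rose and 1 fell (median log2 fold change 1.74). Of the receptors, 19 of 26 rose and 5 fell (median 0.92), and 7 of 9 adaptors rose with none lower (median 0.58). These counts by role include the members that passed the filter through 1 group alone. They are the ligands Fasl, Lta and Tnfsf11 and the receptors Tnfrsf8, Edar, Tnfrsf13c and Tnfrsf17.

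**Figure D1:**
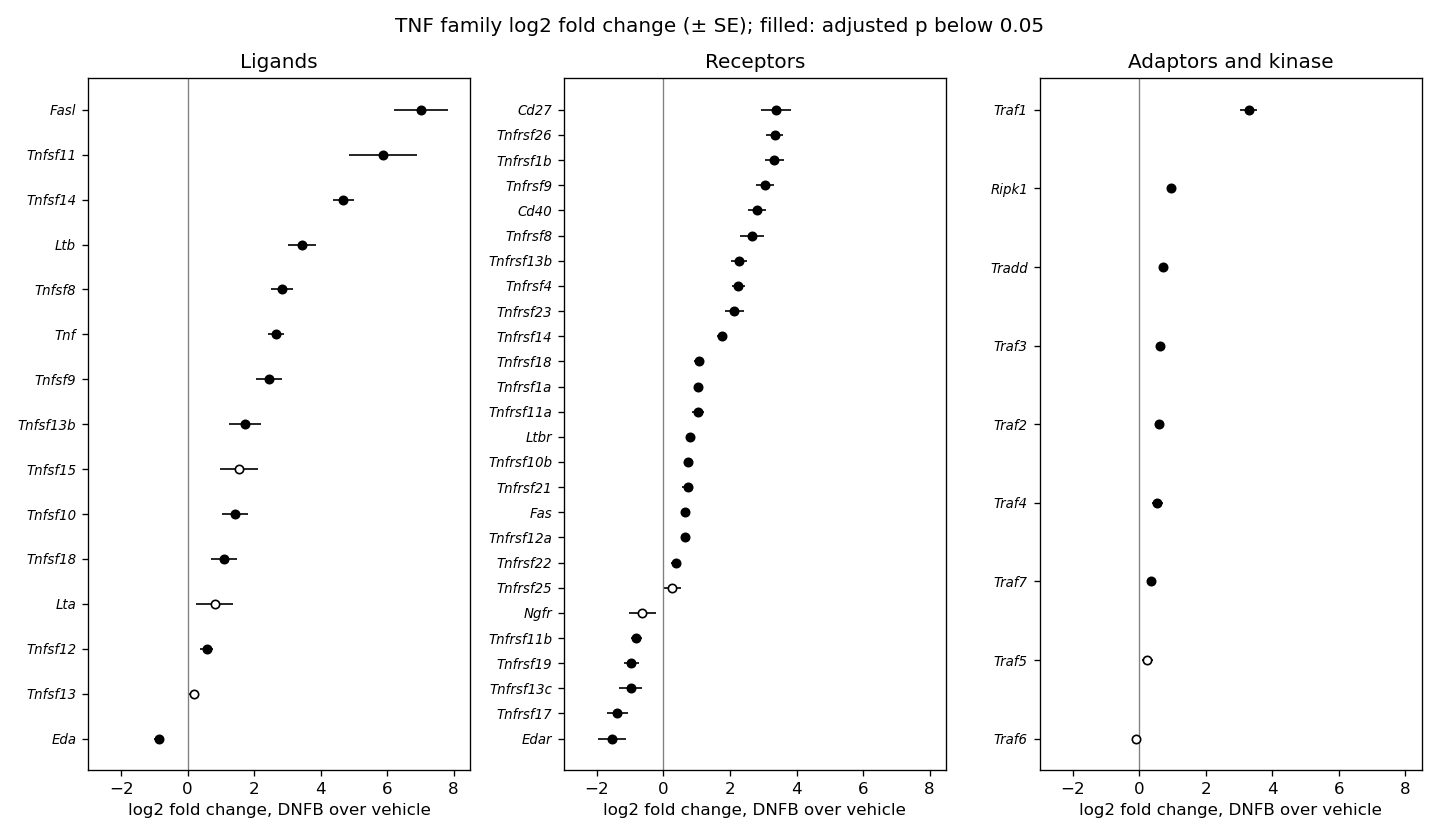
Log2 fold change of DNFB over vehicle ears (x axis) for the 50 tested members, in panels for ligands, receptors and adaptors. Points are edgeR estimates with SE bars from 3 ears per group, filled where the adjusted p is below 0.05; the largest value, that of Fasl, rests on 1 read in the vehicle ears.

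Fasl, Tnfsf11 and Tnfsf14 had the largest fold changes of the ligands, and all 3 stood at 1.25 CPM or less in vehicle ears. Fasl, which triggers death through Fas and is carried by cytotoxic lymphocytes, had 0, 0 and 0.0481 CPM in vehicle ears and 4.46, 2.85 and 1.53 CPM in DNFB ears. The vehicle group held 1 read of it and the DNFB group 178, a count ratio of 177 with an exact 95% interval of 31.4 to 7041 that covers counting error only (adjusted p = 0.00067 by edgeR). With the vehicle ear of mouse 3, which held that read, left out, the DNFB level was at least 38.7-fold higher, taking 3 reads over the vehicle group as the floor. Leaving out each other library gave ratios of 118 to 220.1. Tnfsf11, RANKL, the ligand that drives osteoclasts and is also made by T cells and keratinocytes, measured 0.4995, 0.3102 and 0.529 CPM in the vehicle ears of mice 1, 2 and 3 and 35.9, 40.3 and 3.41 CPM in their DNFB ears. The DNFB ears of mice 1 and 2 were alike and that of mouse 3 far lower, though still above every vehicle ear (log2 fold change 5.87 ± 1.02, adjusted p = 0.00317). The call was lost by limma-voom (adjusted p = 0.0665) and without both ears of mouse 2 (adjusted p = 0.0621). Tnfsf14, LIGHT, which binds HVEM (Tnfrsf14) and the lymphotoxin β receptor, went from 1.15, 1.03 and 1.25 CPM to 38.2, 31.9 and 18.7 CPM. Its vehicle values lay close together and every DNFB ear was several-fold higher (log2 fold change 4.68 ± 0.31, adjusted p = 0.000102).

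The founding members of the family, Tnf, Lta and Ltb, lie side by side in the major histocompatibility region. Tnf and Ltb rose, and Lta missed the threshold. Tnf measured 2.997, 3.62 and 2.74 CPM in the vehicle ears of mice 1, 2 and 3 and 21.1, 23.8 and 13.99 CPM in their DNFB ears. It was higher in each DNFB ear than in any vehicle ear, by 6.28-fold between the groups (log2 fold change 2.65 ± 0.24, adjusted p = 0.000263). Ltb, the membrane partner that forms heterotrimers with lymphotoxin α, measured 0.999, 1.14 and 1.97 CPM in vehicle ears and 20.5, 16.2 and 8.01 CPM in DNFB ears and rose 10.8-fold (adjusted p = 0.000839 by edgeR). Lta, lymphotoxin α itself, stayed near or below 1 CPM, at 0.1998, 0.3102 and 0.962 CPM in vehicle and 0.743, 1.15 and 0.742 CPM in DNFB ears. Its groups overlapped through the vehicle ear of mouse 3, and it missed the threshold (log2 fold change 0.82 ± 0.56, adjusted p = 0.255). With that ear left out the log2 fold change was 1.78 and the adjusted p 0.0263 by edgeR.

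Among ligands that costimulate T cells, Tnfsf8, Tnfsf9 and Tnfsf18 rose, and Tnfsf4, Cd40lg and Cd70 did not pass the filter on low counts. Tnfsf15, given in the next paragraph, missed the threshold. Tnfsf8, the CD30 ligand, went from 1.35, 0.775 and 1.68 CPM to 8.13, 12.3 and 6.97 CPM (log2 fold change 2.84 ± 0.34, adjusted p = 0.000715). Tnfsf9, the 4-1BB ligand, went from 0.999, 1.19 and 2.16 CPM to 9.51, 9.85 and 4.696 CPM (log2 fold change 2.46 ± 0.39, adjusted p = 0.00235). In both genes the DNFB ear of mouse 3 was the lowest of its group, and the call of Tnfsf9 was lost without both ears of mouse 2 (adjusted p = 0.0613). That fit kept only 22 of the 43 calls. Tnfsf18, the GITR ligand, measured 0.699, 0.827 and 0.673 CPM in vehicle ears and 2.43, 1.101 and 1.19 CPM in DNFB ears. Only the DNFB ear of mouse 1 stood clear of the vehicle range by more than 1 CPM (log2 fold change 1.10 ± 0.38, adjusted p = 0.0457). The call was lost under the mouse block, a fit in which the ears of 1 animal form a pair (adjusted p = 0.0709), under 4 other choices (upper-quartile factors, no filter, DESeq2 and limma-voom, 0.0592 to 0.0659) and when any vehicle ear or the DNFB ear of mouse 1 was left out (0.0987 to 0.147). Another 3 ligands were too sparse for the filter. Tnfsf4, the OX40 ligand, had 6 reads in the vehicle and 69 in the DNFB group, and in the fit without a filter on low counts it had a log2 fold change of 3.43 and an adjusted p of 0.00566. Cd40lg, the helper T cell ligand of CD40, had 4 and 29 reads (log2 fold change 2.74, adjusted p = 0.0292 in that fit). Its count ratio of 7.22 was 19.3 with the vehicle ear of mouse 1 left out and 4.72 with that of mouse 3 left out. Cd70, the ligand of CD27, had 1 and 8 reads, a count ratio of 7.97 (exact 95% counting interval 1.07 to 353.6), and did not pass there (adjusted p = 0.183). The lower limit of that interval fell to between 0.360 and 0.833 on leaving out the vehicle or DNFB ear of mouse 1 or mouse 2, and the ratio was 4.49 without the DNFB ear of mouse 1.

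Among the other ligands Tnfsf13b, Tnfsf10 and Tnfsf12 rose, Eda fell, and Tnfsf13 and Tnfsf15 did not pass. Tnfsf13b, BAFF, the B cell survival factor made by myeloid cells, measured 0.949, 0.775 and 0.769 CPM in the vehicle ears of mice 1, 2 and 3 and 3.86, 3.402 and 1.09 CPM in their DNFB ears. The DNFB ears of mice 1 and 2 were several-fold above vehicle and that of mouse 3 barely above it (log2 fold change 1.74 ± 0.48, adjusted p = 0.0200). The call was lost by limma-voom (adjusted p = 0.0575) and on leaving out any 1 of the 5 other libraries (0.0554 to 0.0741). The related factor Tnfsf13, APRIL, measured 9.79, 9.31 and 9.23 CPM in vehicle ears and 9.91, 11.8 and 10.4 CPM in DNFB ears. It missed the threshold (log2 fold change 0.18 ± 0.12, adjusted p = 0.266). Tnfsf10, TRAIL, which engages death receptors, went from 1.35, 2.58 and 4.86 CPM to 8.37, 8.45 and 6.92 CPM. Its vehicle ears were the more spread (log2 fold change 1.43 ± 0.40, adjusted p = 0.0216). Leaving out the vehicle ear of mouse 3 gave a log2 fold change of 2.02. The call was lost on leaving out the vehicle ear of mouse 2 (adjusted p = 0.0858 by edgeR) or its DNFB ear (0.0630). Tnfsf12, TWEAK, the most abundant ligand per gene length, measured 32.1, 33.97 and 34.7 CPM in vehicle ears and 58.3, 55.7 and 35.6 CPM in DNFB ears (log2 fold change 0.57 ± 0.18, adjusted p = 0.0366). The DNFB ear of mouse 3 lay just above the vehicle ears. The call was lost under the mouse block (adjusted p = 0.0638), with upper-quartile factors (0.0598), by limma-voom (0.0511) and on leaving out any 1 of the 5 other libraries (0.0816 to 0.116). Tnfsf15, TL1A, which costimulates through DR3, measured 2.498, 1.499 and 1.202 CPM in vehicle ears and 5.05, 8.55 and 1.63 CPM in DNFB ears, with the DNFB ear of mouse 3 inside the vehicle range. It missed the threshold (log2 fold change 1.55 ± 0.58, adjusted p = 0.0595) but passed under the mouse block (0.0434), by DESeq2 (0.0196) and with that ear left out (0.0015). Leaving out the DNFB ear of mouse 2 gave a log2 fold change of 0.95. Eda, ectodysplasin, a ligand of hair and gland development, was the only ligand that fell. It measured 11.3, 9.46 and 11.6 CPM in vehicle ears and 5.45, 6.25 and 6.18 CPM in DNFB ears, a 1.81-fold decrease (log2 fold change −0.86 ± 0.14, adjusted p = 0.00279).

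**Figure D2:**
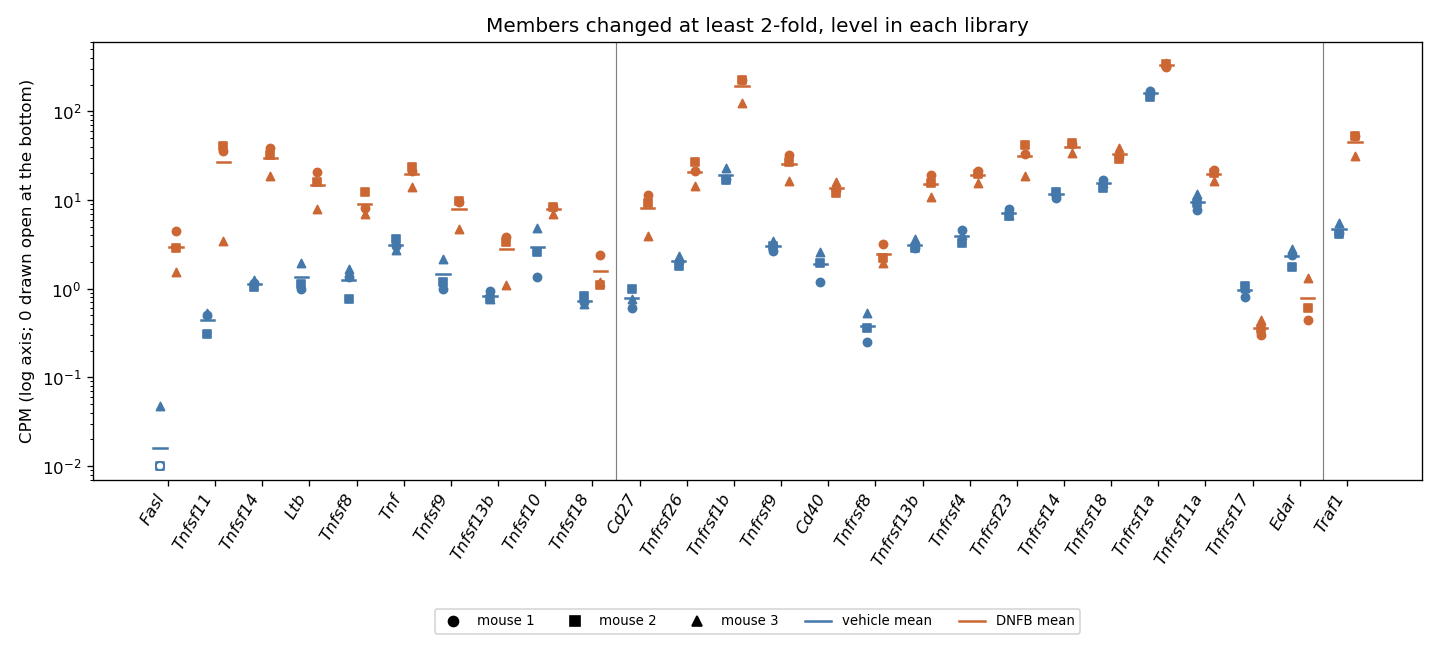
Level in each library (CPM, log axis) of the 26 members that passed the test with a change of at least 2-fold, ligands left, receptors in the middle and Traf1 right. Symbols give the mouse, colours the treatment and bars the group mean of 3 ears; the DNFB ear of mouse 3 is the lowest DNFB ear for most members, and for Tnfsf11 it sits at 3.41 CPM against 35.9 and 40.3 CPM.

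Both TNF receptors rose, Tnfrsf1a by 2.07-fold and Tnfrsf1b by 10.1-fold. Tnfrsf1a, the broadly expressed death domain receptor, measured 171, 147 and 171 CPM in the vehicle ears of mice 1, 2 and 3 and 319.7, 343 and 351 CPM in their DNFB ears. The 3 DNFB ears lay close together, 2.07-fold above vehicle (log2 fold change 1.05 ± 0.11, adjusted p = 0.000422). Tnfrsf1b, the second TNF receptor, typical of leukocytes and endothelium, measured 17.1, 16.9 and 23.3 CPM in vehicle ears and 227, 229 and 125 CPM in DNFB ears, a 10.1-fold rise (log2 fold change 3.34 ± 0.27, adjusted p = 0.000196) with the DNFB ear of mouse 3 the lowest. Ltbr, the stromal receptor for lymphotoxin and LIGHT, measured 73.3, 70.6 and 85.8 CPM in vehicle ears and 127, 133 and 142 CPM in DNFB ears and rose 1.75-fold. Tnfrsf14, the other LIGHT receptor, went from 10.5, 12.4 and 12.3 CPM to 42.4, 43.5 and 33.6 CPM and rose 3.39-fold.

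Costimulatory receptors of T cells rose, apart from Tnfrsf25. Cd27, carried by naive and memory T cells, measured 0.599, 0.982 and 0.769 CPM in the vehicle ears of mice 1, 2 and 3 and 11.3, 9.25 and 3.95 CPM in their DNFB ears. It rose 10.4-fold (log2 fold change 3.37 ± 0.45, adjusted p = 0.00106), and the DNFB ear of mouse 3 was the lowest of its group. Tnfrsf9, 4-1BB, an activation marker of cytotoxic T cells, measured 2.697, 2.998 and 3.46 CPM in vehicle ears and 32.3, 26.96 and 16.4 CPM in DNFB ears (log2 fold change 3.04 ± 0.27, adjusted p = 0.000277). Tnfrsf8, CD30, measured 0.2498, 0.362 and 0.529 CPM in vehicle ears and 3.17, 2.201 and 1.93 CPM in DNFB ears (log2 fold change 2.65 ± 0.36, adjusted p = 0.00115). Tnfrsf4, OX40, of activated and regulatory T cells, measured 4.596, 3.26 and 4.09 CPM in vehicle ears and 21.5, 19.7 and 15.7 CPM in DNFB ears (log2 fold change 2.25 ± 0.19, adjusted p = 0.00021). In these 3 genes the groups were several-fold apart, with mouse 3 lowest among DNFB ears. Tnfrsf18, GITR, abundant on regulatory T cells and also present in other skin cells, measured 16.8, 13.9 and 15.8 CPM in vehicle ears and 30.3, 28.8 and 39.0 CPM in DNFB ears. It was already well expressed in vehicle ears, and among the DNFB ears mouse 3 was the highest (log2 fold change 1.08 ± 0.15, adjusted p = 0.00126). Tnfrsf25, DR3, the receptor of TL1A, measured 1.75, 1.603 and 2.404 CPM in vehicle ears and 2.23, 1.85 and 2.87 CPM in DNFB ears. Its groups overlapped (log2 fold change 0.27 ± 0.26, adjusted p = 0.419).

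Of the receptors of antigen-presenting and B cells, Cd40 and Tnfrsf13b rose, and Tnfrsf17 and Tnfrsf13c fell. Both that fell passed the filter on low counts only through the vehicle ears. Cd40, through which T cells license dendritic cells and B cells, measured 1.199, 1.96 and 2.596 CPM in the vehicle ears of mice 1, 2 and 3 and 12.8, 12.01 and 16.02 CPM in their DNFB ears. All DNFB ears were far above the vehicle range and that of mouse 3 was the highest (log2 fold change 2.82 ± 0.28, adjusted p = 0.00036). Of the receptors for BAFF and APRIL, Tnfrsf13b (TACI) measured 2.897, 2.84 and 3.61 CPM in vehicle ears and 19.03, 15.7 and 10.9 CPM in DNFB ears and rose 4.87-fold (log2 fold change 2.28 ± 0.24, adjusted p = 0.000456). Tnfrsf17, BCMA, known from plasma cells, measured 0.799, 1.09 and 1.01 CPM in vehicle and 0.297, 0.3502 and 0.445 CPM in DNFB ears and fell 2.62-fold (log2 fold change −1.39 ± 0.31, adjusted p = 0.00886). Tnfrsf13c, the BAFF receptor of mature B cells, measured 0.549, 0.672 and 0.769 CPM in vehicle ears and 0.396, 0.3502 and 0.247 CPM in DNFB ears (log2 fold change −0.99 ± 0.34, adjusted p = 0.0446). Both were sparse, with 58 and 40 reads over the vehicle group, and neither was tested under the filter of 1 CPM in 3 libraries. The call of Tnfrsf17 was lost without both ears of mouse 1 (adjusted p = 0.0560 by edgeR) and without both of mouse 2 (0.112). The call of Tnfrsf13c was lost under the mouse block (adjusted p = 0.110), with no filter (0.0830), by DESeq2 (0.200) and on leaving out any 1 library (0.0748 to 0.138). Of the 7 genes of the B and plasma cell list, 3 could be tested. Of these 1 rose and none fell, where 25.9% of all genes tested rose and 25.4% fell. That gene, Cd79b, part of the B cell antigen receptor, measured 0.749, 1.03 and 0.337 CPM in vehicle ears and 4.46, 3.302 and 1.19 CPM in DNFB ears (log2 fold change 2.08 ± 0.57, adjusted p = 0.0197). Jchain, of antibody-secreting cells, had 8 reads in the vehicle and 86 in the DNFB group, 63 of them in mouse 1, and was not tested. The list summed to 295 to 330.3 CPM in vehicle and 222 to 307 CPM in DNFB ears, most of it from Sdc1, which epithelium also expresses. Ms4a1 had no read in the vehicle ears and 0.0991, 0.5002 and 0.148 CPM in DNFB ears. Pax5 measured 0.04995, 0.103 and 0 CPM in vehicle ears and 0.198, 0.1501 and 0.148 CPM in DNFB ears, and the part of B cells in these values was not tested.

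Fas, Tnfrsf10b and Tnfrsf21, which carry death domains, each rose by less than 2-fold. Fas measured 13.3, 17.7 and 15.1 CPM in vehicle ears and 26.6, 24.6 and 21.8 CPM in DNFB ears (log2 fold change 0.66 ± 0.14, adjusted p = 0.00738). Tnfrsf10b, the mouse TRAIL death receptor, measured 10.8, 12.1 and 11.1 CPM in vehicle ears and 21.7, 18.9 and 16.4 CPM in DNFB ears (log2 fold change 0.74 ± 0.14, adjusted p = 0.00407). Tnfrsf21, DR6, rose 1.65-fold from a mean of 27.5 ± 2.19 to 45.5 ± 10.2 CPM (mean ± SD, n = 3 per group). Its call was lost on leaving out the vehicle ear of mouse 2 (adjusted p = 0.0523 by edgeR). The mouse TRAIL decoy receptors Tnfrsf22 and Tnfrsf23 and their neighbour Tnfrsf26 lie side by side and were all higher. Tnfrsf26 measured 1.998, 1.81 and 2.36 CPM in vehicle ears and 21.3, 26.9 and 14.6 CPM in DNFB ears, and Tnfrsf23 measured 7.89, 6.57 and 6.83 CPM in vehicle ears and 32.9, 42.1 and 18.5 CPM in DNFB ears. These 2 rose 10.1-fold and 4.39-fold (adjusted p = 0.000168 and 0.00126 by edgeR). Tnfrsf22 measured 8.34, 7.34 and 8.65 CPM in vehicle ears and 10.1, 10.9 and 10.4 CPM in DNFB ears and passed narrowly (log2 fold change 0.36 ± 0.13, adjusted p = 0.0459). That call was lost under the mouse block (adjusted p = 0.118), under 3 other choices (upper-quartile factors, no filter and DESeq2, 0.0547 to 0.0920) and on leaving out any 1 library (0.0504 to 0.141).

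Receptors of bone, repair and skin appendages held 3 of the 5 decreases. Tnfrsf11a, RANK, rose 2.05-fold, from 7.69, 9.15 and 11.6 CPM to 21.9, 20.01 and 16.5 CPM (adjusted p = 0.00365 by edgeR). Tnfrsf11b, osteoprotegerin, the soluble decoy that binds RANKL, fell 1.76-fold, from 15.4, 19.6 and 17.8 CPM to 12.1, 8.804 and 9.096 CPM (log2 fold change −0.82 ± 0.17, adjusted p = 0.00597). Tnfrsf12a, Fn14, the TWEAK receptor, measured 59.6, 57.95 and 59.1 CPM in vehicle ears and 81.6, 87.3 and 109 CPM in DNFB ears. The vehicle ears were within 2 CPM of each other and the DNFB ear of mouse 3 was the highest (log2 fold change 0.65 ± 0.12, adjusted p = 0.00429). Edar, the ectodysplasin receptor, measured 2.398, 1.76 and 2.79 CPM in the vehicle ears of mice 1, 2 and 3 and 0.446, 0.6003 and 1.33 CPM in their DNFB ears. It fell 2.904-fold (log2 fold change −1.54 ± 0.42, adjusted p = 0.0188). Leaving out the DNFB ear of mouse 3 gave a log2 fold change of −2.14. The call was lost on leaving out the vehicle ear of mouse 1 (adjusted p = 0.0605 by edgeR), that of mouse 3 (0.0682) or the DNFB ear of mouse 2 (0.0741). Tnfrsf19, TROY, a relative of Edar known from hair follicles, measured 75.3, 73.2 and 84.8 CPM in vehicle ears and 27.6, 36.97 and 54.97 CPM in DNFB ears and fell 1.95-fold (log2 fold change −0.96 ± 0.23, adjusted p = 0.0123), with the DNFB ear of mouse 3 nearest to vehicle. Ngfr, the low-affinity neurotrophin receptor of nerves and Schwann cells, measured 16.4, 9.87 and 25.9 CPM in vehicle ears and 6.34, 12.2 and 15.1 CPM in DNFB ears. Its groups overlapped and it missed the threshold (log2 fold change −0.63 ± 0.41, adjusted p = 0.232). Beside these genes, 3 of 4 Schwann cell markers were lower in DNFB ears, against 25.4% of all genes tested. Their summed levels were 448 to 622 CPM in vehicle and 181 to 335 CPM in DNFB ears, and their part was not tested.

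Among the adaptors Traf1 stood alone in size. Traf1, itself an NF-κB-induced adaptor that binds TRAF2, measured 4.296, 4.19 and 5.58 CPM in the vehicle ears of mice 1, 2 and 3 and 53.3, 52.8 and 31.04 CPM in their DNFB ears. It rose 9.73-fold (log2 fold change 3.28 ± 0.25, adjusted p = 0.000159), while the other called adaptors rose by 1.28-fold to 1.93-fold. Ripk1, the kinase that stands between survival and death at the TNF receptor, measured 47.9, 45.6 and 43.9 CPM in vehicle ears and 94.98, 87.6 and 83.3 CPM in DNFB ears (log2 fold change 0.95 ± 0.09, adjusted p = 0.000337). Tradd, the death domain adaptor of TNF receptor 1, measured 11.8, 11.7 and 12.2 CPM in vehicle ears and 20.9, 18.6 and 18.7 CPM in DNFB ears (log2 fold change 0.71 ± 0.11, adjusted p = 0.00176). In both genes the groups were far apart for their spread. Traf2, which brings ubiquitin ligases to the receptors, and Traf3, which restrains the alternative NF-κB pathway, had log2 fold changes of 0.58 ± 0.10 and 0.62 ± 0.13, and Traf4 and Traf7 0.54 ± 0.16 and 0.36 ± 0.09. Under the mouse block Traf4 (adjusted p = 0.0642 by edgeR, and 0.0286 with no block) and Traf7 (0.0587 and 0.0124) were no longer called. Traf4 was also lost on leaving out either ear of mouse 1 or of mouse 2 (0.0594 to 0.106). Traf7 was lost on leaving out the vehicle ear of mouse 1 or either ear of mouse 2 (0.0528 to 0.0559). Traf6, the adaptor shared with interleukin 1 and Toll-like receptors, measured 56.5, 49.5 and 46.1 CPM in vehicle ears and 47.5, 48.7 and 44.6 CPM in DNFB ears. Traf5 measured 8.29, 7.60 and 10.2 CPM in vehicle ears and 9.36, 9.85 and 11.7 CPM in DNFB ears. Their groups overlapped and neither passed (log2 fold change −0.11, adjusted p = 0.397 for Traf6 and log2 fold change 0.25, adjusted p = 0.245 for Traf5).

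Ratios between paired members were taken within each library from TPM, a unit that is scaled for gene length, so that 2 genes can be compared. The ratio of RANKL to its decoy, Tnfsf11 to Tnfrsf11b, was 0.0406, 0.0202 and 0.0373 in the vehicle ears of mice 1, 2 and 3 and 3.76, 5.79 and 0.475 in their DNFB ears. The decoy exceeded the ligand in every vehicle ear and in the DNFB ear of mouse 3, and the ligand exceeded the decoy in the DNFB ears of mice 1 and 2. On the log2 scale the mean ratio was 6.12 higher in DNFB ears, and 5.10 to 7.35 higher with 1 mouse left out. The Tnfrsf1b to Tnfrsf1a ratio was 0.0433, 0.0499 and 0.0591 in vehicle and 0.307, 0.289 and 0.154 in DNFB ears, so Tnfrsf1a had the higher TPM in all 6 libraries. Traf1 to Traf2 went from 0.254, 0.257 and 0.376 to 2.21, 2.31 and 1.32, passing 1 in all 3 DNFB ears. Tnfsf13b to Tnfsf13 went from 0.0960, 0.0784 and 0.0740 to 0.388, 0.285 and 0.104. Tnfsf10 to Tnfrsf10b gave overlapping groups, 0.0790, 0.138 and 0.281 in vehicle and 0.247, 0.285 and 0.271 in DNFB ears. By an exact two-sided permutation test the first 4 ratios had p = 0.1, the smallest that 3 against 3 allows, and Tnfsf10 to Tnfrsf10b had p = 0.3. Adjusted over the 5 ratios these were 0.125 and 0.3, so none could pass 0.05. Cd40 to Cd40lg gave no ratio because Cd40lg was listed at 0 in the vehicle ear of mouse 3.

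**Figure D3:**
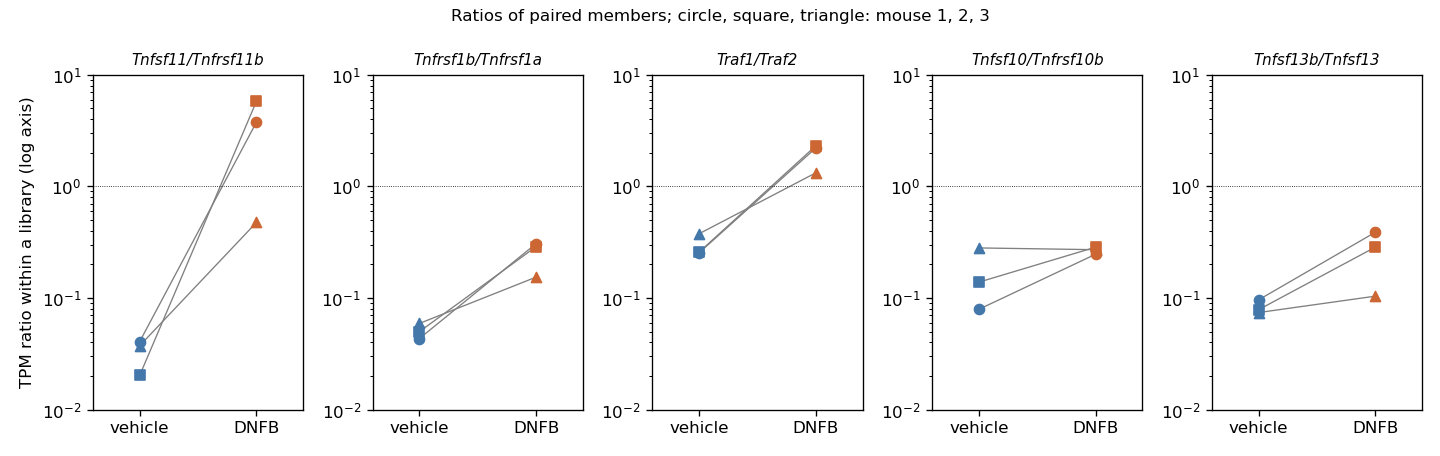
TPM ratio of 5 pairs of members within each library (log axis), vehicle and DNFB ear of the same mouse joined by a line. The dotted line marks equal levels; Tnfsf11/Tnfrsf11b rises above it in mice 1 and 2 (3.76 and 5.79) and stays below it in mouse 3 (0.475), and Traf1/Traf2 rises above it in all 3.

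Per gene length, the receptor genes made up most of the family's transcripts. The summed TPM of the 53 members was 578 to 716 in vehicle and 1183 to 1340 in DNFB ears. Receptors held 410.1 to 513 and 881 to 913 of this, ligands 57.1 to 69.4 and 113 to 224, and adaptors 111 to 133 and 180.5 to 208. In vehicle ears the order by mean TPM was Tnfrsf1a (131; 112 to 145 over the 3 ears), Tnfrsf12a (109; 101 to 116), Ltbr (63.1; 55.04 to 74.6), Traf7 (40.1; 36.0 to 45.1) and Tnfsf12 (34.6; 32.8 to 37.8). The ranges of the first and second, and of the fourth and the fifth, overlapped. In DNFB ears Tnfrsf1a (268; 254 to 276), Tnfrsf12a (169; 149 to 197) and Ltbr (109; 103 to 114) again led, without overlap, followed by Tnfrsf1b (66.5; 42.5 to 79.03) and Tnfrsf18 (55.7; 49.4 to 66.1), whose ranges overlapped. Among ligands Tnfsf12 had the highest mean TPM in both groups. In vehicle ears it was followed by Tnfsf13 (9.81), and in DNFB ears by Tnfsf14 (27.2), Ltb (23.8), Tnf (20.4) and Tnfsf11 (20.4), whose ranges overlapped.

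**Figure D4:**
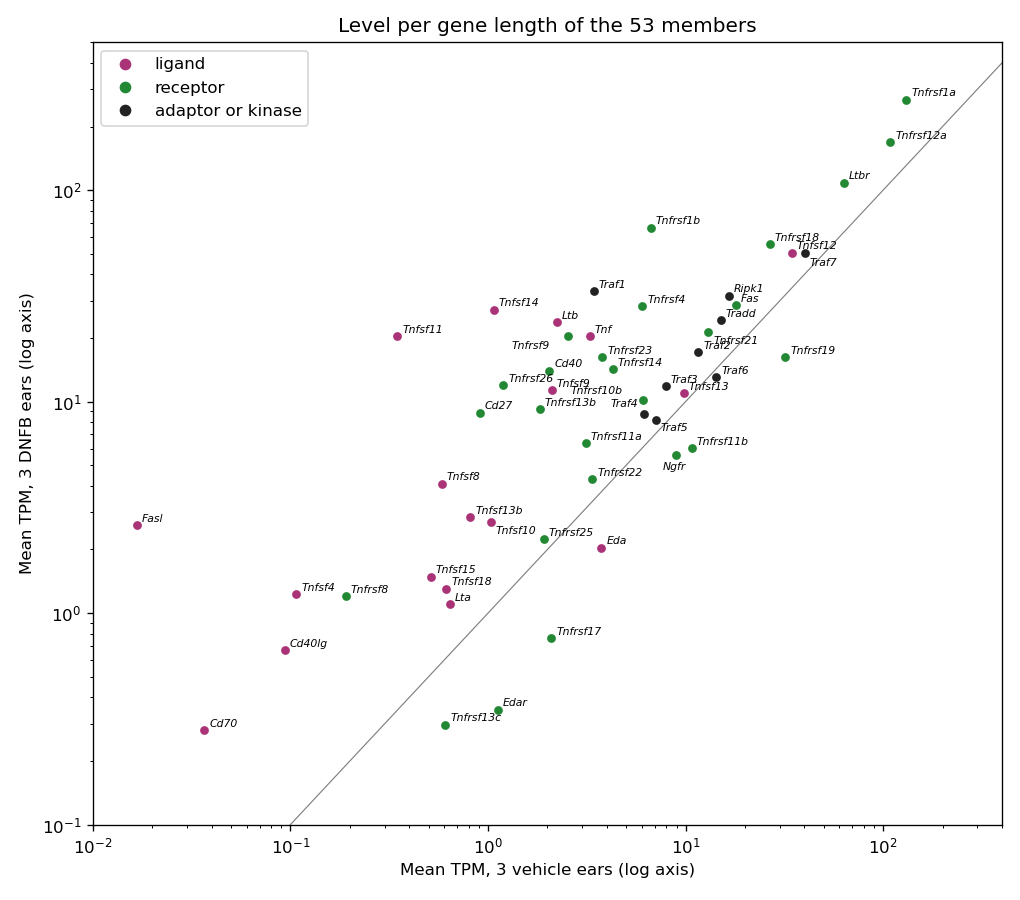
Mean TPM of each of the 53 members in the 3 vehicle ears (x, log axis) and the 3 DNFB ears (y, log axis), coloured by role, with the line of equal level. Most ligands lie low and left of the line, while Tnfrsf1a, Tnfrsf12a and Ltbr are at the top in both groups.

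The DNFB ear of mouse 3 was the lowest DNFB ear for 28 of the 37 members that rose, as it was for 69% of all genes that rose. Set against the mean of mice 1 and 2, its median log2 difference was −0.46 over these members and −0.25 over all genes that rose. The largest gaps were those of Tnfsf11 (−3.44), Tnfsf13b (−1.65), Cd27 (−1.36), Fasl (−1.20) and Ltb (−1.19). It was the highest DNFB ear for 5 of them, Cd40, Tnfrsf18, Tnfrsf1a, Ltbr and Tnfrsf12a. The summed neutrophil markers of that ear were also the lowest of the DNFB ears, at 1094 CPM, as were the T cell markers at 88.8 CPM, and their part in the gaps was not tested. With that library left out, 38 members were higher and 5 lower.

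Some members lie next to each other and some share sequence. By RefSeq gene order (GRCm38.p6, used for order only), 23 members formed 9 groups with at most 2 other protein-coding genes between neighbours. Fold changes of neighbours were set side by side with no test of their difference. Tnfrsf1b and Tnfrsf8 rose by 3.34 and 2.65 on the log2 scale and Tnfrsf4 and Tnfrsf18 by 2.25 and 1.08. The group of Cd27, Ltbr and Tnfrsf1a rose by 3.37, 0.81 and 1.05. Tnfsf9 and Tnfsf14, with the barely detected Cd70 between them, rose by 2.46 and 4.68. Reads were 50 bases long, and in GENCODE M21 transcripts 27.4% of the 50-base stretches of Tnfrsf22 and 19.3% of those of Tnfrsf23 also occur in another gene, 17.3% and 18% in each other. The split of reads between these 2 is therefore uncertain, while for Tnfrsf26 the share was 1.89%. Tnfsf12 and Tnfsf13 share 46.8% and 57.3% with Tnfsfm13, a gene that joins both. Tnfsfm13 did not pass in these libraries (log2 fold change 0.53, adjusted p = 0.434 by edgeR), and the split of its reads is uncertain too. For Tnfrsf18 the share was 18.7%, with an overlapping gene, and for Tnfsf9 11.5%. For all others it was below 10%.

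Since members that rose include genes known as NF-κB targets, the 250 bases before the RefSeq start were searched for 2 spellings of a κB-like motif on both strands, GGG followed by 2 bases of any kind and then TTTCC, and the same with TTCC. A window was at hand for 42 of the 53 members, and 5 of these 42 (11.9%) held a match, against 6.79% of 27025 genes (5.99% of 32851 windows). The matches were in Ltb, Tnfrsf9, Tnfrsf13b and Traf3, which rose, and in Tnfrsf25, which did not pass. Tnfrsf9 and Tnfrsf25 each have another RefSeq start, and the window before that one held no match. The 4 promoters of called members are printed 5′ to 3′ on the strand of the gene, each ending at the last base before the start, because they let the matched letters be seen beside the fold changes. Capitals mark the match, and the build is GRCm38.p6, plus strand, from RefSeq. In Tnfrsf9 and Traf3 both spellings match the same stretch, so they are 1 place and not 2. A match is a description of letters, and a window without one says nothing of a factor.
Ltb (chr17:35194257-35194506): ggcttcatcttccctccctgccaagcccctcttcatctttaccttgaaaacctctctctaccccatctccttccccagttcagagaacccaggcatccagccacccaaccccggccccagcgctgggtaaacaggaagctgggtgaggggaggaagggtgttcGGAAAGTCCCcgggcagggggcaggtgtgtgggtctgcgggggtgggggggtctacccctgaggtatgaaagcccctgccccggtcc
Tnfrsf9 (chr4:150927749-150927998): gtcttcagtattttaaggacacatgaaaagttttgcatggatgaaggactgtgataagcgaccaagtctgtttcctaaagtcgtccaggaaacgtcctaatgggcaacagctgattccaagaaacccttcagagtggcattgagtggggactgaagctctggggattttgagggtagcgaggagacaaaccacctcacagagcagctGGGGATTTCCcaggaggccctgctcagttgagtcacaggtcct
Tnfrsf13b (chr11:61126505-61126754): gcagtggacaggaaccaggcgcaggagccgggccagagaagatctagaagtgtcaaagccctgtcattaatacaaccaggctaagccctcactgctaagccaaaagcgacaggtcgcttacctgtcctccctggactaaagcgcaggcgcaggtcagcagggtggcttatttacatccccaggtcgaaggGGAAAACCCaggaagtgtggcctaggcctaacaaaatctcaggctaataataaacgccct
Traf3 (chr12:111166120-111166369): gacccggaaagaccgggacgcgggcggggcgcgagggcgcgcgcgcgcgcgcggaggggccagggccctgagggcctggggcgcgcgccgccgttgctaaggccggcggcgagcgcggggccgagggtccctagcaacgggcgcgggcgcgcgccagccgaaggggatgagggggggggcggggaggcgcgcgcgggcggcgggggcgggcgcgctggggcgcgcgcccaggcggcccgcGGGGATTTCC
The match ends 77 bases before the start in Ltb, 33 in Tnfrsf9, 51 in Tnfrsf13b and 0 in Traf3, and these genes rose by 3.43, 3.04, 2.28 and 0.62 on the log2 scale.

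Genes that act before and after these receptors were read from 9 lists of 85 genes, of which 80 could be tested. Of these 56 rose, 3 fell and 21 missed the threshold (median log2 fold change 0.88, against −0.02 over all genes tested, where 25.9% rose and 25.4% fell). The lists were chosen with earlier results of these data known, so these shares are a description and not a test. In the shedding list 3 of 4 rose. The fourth, Rhbdf1, missed the threshold (log2 fold change −0.43, adjusted p = 0.0909) but was lower under the mouse block (0.0492) and on leaving out the DNFB ear of mouse 3 (0.00619). Rhbdf2, the iRhom that brings ADAM17 to the surface, measured 40.2, 34.6 and 35.96 CPM in vehicle ears and 70.7, 79.3 and 68.96 CPM in DNFB ears (log2 fold change 0.98 ± 0.10, adjusted p = 0.000449). The protease gene Adam10 rose by 0.70 on the log2 scale, and Adam17 itself by 0.30. The call of Adam17 was lost under the mouse block (adjusted p = 0.0904 by edgeR), by upper-quartile scaling (0.0888) and on leaving out any 1 library but the DNFB ear of mouse 3 (0.0799 to 0.119). Among 8 receptors and adaptors outside the symbol rule 4 rose and none fell. Of these, Fadd was lost on leaving out either ear of mouse 2 (adjusted p = 0.0548 and 0.0515). Relt, a receptor of the family, measured 2.65, 2.43 and 3.13 CPM in vehicle ears and 31.8, 23.2 and 13.8 CPM in DNFB ears (log2 fold change 3.06 ± 0.32, adjusted p = 0.000463). Tifa, a TRAF-interacting adaptor, measured 7.84, 8.89 and 8.61 CPM in vehicle ears and 42.9, 33.5 and 23.6 CPM in DNFB ears (log2 fold change 1.98 ± 0.22, adjusted p = 0.000574).

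All 5 NF-κB subunits rose, with Nfkb2 and Relb, the subunits of the alternative pathway, at log2 fold changes of 1.81 ± 0.22 and 1.53 ± 0.20, Nfkb1 at 1.09 ± 0.12 and Rela at 0.77 ± 0.13. The shares over all genes tested, 25.9% higher and 25.4% lower, apply beside each count here. Of 20 genes of the ubiquitin and kinase step 9 rose, 1 fell and 10 missed the threshold (median 0.22). The 1 that fell, Tab3, a subunit of the TAK1 complex (log2 fold change −0.38, adjusted p = 0.0159), was lost under the mouse block (0.0614) and on leaving out either ear of mouse 1 or the DNFB ear of mouse 2 (0.0554 to 0.0664). The kinase of the alternative pathway, Map3k14 (NIK), measured 10.9, 11.8 and 11.97 CPM in vehicle ears and 48.9, 47.8 and 37.9 CPM in DNFB ears (log2 fold change 1.96 ± 0.13, adjusted p = 9.99e-05). The ubiquitin ligase Birc3 measured 39.8, 45.6 and 38.2 CPM in vehicle ears and 156, 140.3 and 83.7 CPM in DNFB ears (log2 fold change 1.62 ± 0.23, adjusted p = 0.00139). Tab2, the most abundant gene of that list that did not pass, stood at 194, 184 and 182 CPM in vehicle ears and 181, 189 and 162 CPM in DNFB ears (log2 fold change −0.08, adjusted p = 0.545). Of 14 genes listed as feedback inhibitors of NF-κB and TNF, 12 rose and none fell. Of these, Spata2 was lost under the mouse block (adjusted p = 0.0556) and on leaving out either ear of mouse 2 (0.0597 and 0.0633). Nfkbia was lost on leaving out any 1 library but the DNFB ear of mouse 3 (0.0621 to 0.1002). Bcl3, a nuclear IκB protein, went from 12.1, 10.5 and 12.8 CPM to 123, 135 and 126 CPM (log2 fold change 3.44 ± 0.11, adjusted p = 9.35e-06). Nfkbie, IκBε, went from 5.59, 5.64 and 8.08 CPM to 76.6, 65.03 and 30.6 CPM (log2 fold change 3.15 ± 0.36, adjusted p = 0.000636). The DNFB ears of Bcl3 were alike in all 3 mice, and Nfkbie was lowest in mouse 3. Zfp36, which destabilises Tnf mRNA, rose by 2.35 ± 0.20 on the log2 scale. Tnfaip3, the deubiquitinase A20, and Tnip3, an A20-binding protein, rose by 1.81 ± 0.29 and 1.84 ± 0.30. Cyld, another deubiquitinase of the pathway, missed the threshold (log2 fold change 0.16, adjusted p = 0.338).

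Of the list of 10 death pathway genes, which holds caspases and necroptosis genes together with the survival genes Cflar, Bcl2a1b, Bcl2a1d and Bcl2l1, 9 rose and none fell. The survival genes Cflar, Bcl2a1b and Bcl2a1d were 3 of those 9. For this and the next lists, the shares over all genes tested were 25.9% higher and 25.4% lower. The necroptosis kinase Ripk3 measured 7.04, 7.03 and 8.32 CPM in vehicle ears and 55.8, 51.9 and 48.7 CPM in DNFB ears (log2 fold change 2.80 ± 0.12, adjusted p = 1.89e-05). Mlkl, which it activates, measured 3.45, 3.88 and 4.71 CPM in vehicle ears and 32.2, 27.6 and 32.8 CPM in DNFB ears (log2 fold change 2.94 ± 0.15, adjusted p = 4.2e-05). Both were close together among the 3 DNFB ears. Casp8, the apoptosis initiator, rose by 1.38 ± 0.09 on the log2 scale. The survival genes Bcl2a1b and Bcl2a1d, near-identical copies whose reads cannot be split with certainty, rose by 3.42 ± 0.30 and 2.90 ± 0.37. Bcl2l1, another survival gene, missed the threshold (log2 fold change −0.10, adjusted p = 0.525). Textbook TNF-induced genes of endothelium and stroma rose in 12 of 13 cases (median 3.56). Of these, Ackr1 was lost on leaving out the vehicle ear of mouse 1 (adjusted p = 0.0859) or mouse 2 (0.0827). Il6, Cxcl2, Ccl2 and Ptgs2 had log2 fold changes of 8.96 ± 0.75, 7.93 ± 0.72, 5.38 ± 0.26 and 5.35 ± 0.53. The chemokine Ccl20 missed the threshold (log2 fold change −1.24, adjusted p = 0.222), with the DNFB ear of mouse 3 at 12.1 CPM inside the vehicle range. Leaving out that ear gave a log2 fold change of −2.77 and an adjusted p of 0.00219 by edgeR. Endothelial markers rose in 2 of 5 cases and 3 did not pass, where 25.9% of all genes tested rose. Their summed levels were 183 to 227 CPM in vehicle and 252 to 359 CPM in DNFB ears, and their part was not tested. Of the lymphoid stroma list, the chemokine genes Ccl19 and Cxcl13 rose by 2.54 ± 0.39 and 2.00 ± 0.50 on the log2 scale, Ccl21a fell by 0.60, and 3 genes were not tested. The call of Cxcl13 was lost on leaving out the vehicle ear of mouse 2 (adjusted p = 0.0596 by edgeR). In the list of RANKL axis partners 3 of 5 genes could be tested, and none of these 3 rose. Dcstamp, with 29 reads in the vehicle and 33 in the DNFB group, and Calcr, with 2 and 12, were not tested. The osteoclast enzymes Ctsk and Acp5 missed the threshold (log2 fold change −0.17, adjusted p = 0.171 and log2 fold change −0.12, adjusted p = 0.434). Nfatc1, a transcription factor of osteoclasts and T cells, fell (log2 fold change −0.52 ± 0.15, adjusted p = 0.0257). Its call was lost under the mouse block (adjusted p = 0.0513) and on leaving out the vehicle ear of mouse 1 (0.101) or mouse 3 (0.0904).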

How the data were processed

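Polyadenylated RNA of 6 ear samples was sequenced as single-end reads of 50 bases on a DNBSeq instrument, per the labels' protocols, which state no strand selection. HISAT and GRCm39 are named in the submitters' processing notes without a version, while the counter and its annotation are not stated there. The authors deposited, per the file headers, read counts, TPM and FPKM per gene and library with group means. The deposited counts carry decimals and were treated as estimated counts. They were exactly whole as written, with no remainder, for 65.5% to 67.3% of genes in 4 libraries and for 43.7% and 41.6% in the DNFB ears of mice 2 and 3; the reason is not given. Counts were rounded and tested with edgeR 4.0.16 in R 4.3.3 (TMM, filterByExpr with a minimum count of 10, quasi-likelihood, two-sided) on all genes, taking as SE the size of the log2 change over the square root of F. CPM use TMM-scaled totals. TPM, as deposited, served for levels between genes and FPKM only as a check of ratios. Alternatives were the mouse as a block, other scaling (DESeq2 size factors, upper quartile), filters, DESeq2 1.42.0, limma-voom (limma 3.58.1) and leaving out each library or mouse. The groups pair by animal; same-mouse deviations correlated at −0.027, −0.148 and −0.046. The procedure was tested on simulated counts with the same dispersion for all genes, no pairing of ears and far fewer changed genes than were called here. Its error rates under the conditions of these libraries were therefore not tested. Promoter sequences and gene order are from RefSeq, GRCm38.p6, and shared stretches from GENCODE M21; no coordinates of the files' build are printed. Members and lists were chosen with earlier results of these data known. Values were given per library for members changed at least 2-fold and for abundant ones that did not pass; of each list, the largest changes and the most abundant gene that did not pass. Rela, Tnfaip3, Casp8, Acp5 and genes named only because a call was lost or gained, such as Tab3, fall outside this rule and were named after their values were seen.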

Additional observations from a re-analysis of the deposited data

How the results depend on the processing

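With the mouse as a replicate block 33 members rose and 5 fell, 37 of the 43 calls were kept and Tnfsf15 was added. Under the 13 alternatives that keep all 3 mice, 30 to 38 members rose and 4 to 6 fell, and 31 of the 43 calls held in each; 22 held in all 16. No called member changed direction in any of them. Without both ears of 1 mouse the counts moved most: leaving out libraries or mice gave 21 to 39 members higher and 1 to 5 lower (lowest without mouse 2), 1658 to 4585 genes higher and 936 to 4601 lower among all genes, and 37 to 59 list genes higher and 0 to 6 lower. Fits without a mouse hold 2 ears per group. They kept 29, 22 and 41 of the 43 calls without mouse 1, 2 and 3. Such losses are named above for Tnfsf11, Tnfsf9 and Tnfrsf17 alone. Fas, Tnfrsf10b, Tnfrsf11a, Tnfrsf11b, Tnfrsf12a, Tnfrsf19, Traf2 and Traf3 also lost their call, only in fits without a mouse. Among list genes named above, Adam10, Rela, Tnfaip3, Cflar and Ccl21a lost theirs without mouse 2 (adjusted p = 0.0558 to 0.0990 by edgeR). Log2 differences of the 5 ratios kept their direction, also from FPKM. Upper-quartile scaling shifted the median of all genes by −0.07 and DESeq2 factors by 0.01. Depth limits Fasl, Cd40lg, Cd70, Tnfsf4, Lta, Tnfrsf13c and Tnfrsf17.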
